A study of Mus musculus with 11 samples.

Results

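The Ikaros family of zinc-finger transcription factors was followed here through its own genes, Ikzf1 (Ikaros), Ikzf2 (Helios), Ikzf3 (Aiolos), Ikzf4 (Eos) and Ikzf5 (Pegasus), as open chromatin in 4 sorted mouse lymphoid cell types. The 5 genes were taken by name from 21951 protein-coding genes, and every ATAC-seq peak that overlapped a gene body of the mm10 genome, or the 20 kb on either side of it, was read. This gave 277 of the 298164 peaks in 9 libraries, which fell into 57 of the 71400 intervals obtained by merging overlapping peaks of all libraries. ATAC-seq measures how readily a transposase cuts chromatin, so a peak marks accessible DNA and not a transcript. The cells were conventional CD4 single positive thymocytes (CD4SP, n = 2 libraries) and NKT cells (n = 2) from thymus, and common lymphoid progenitors (CLP, n = 3) and innate lymphoid cell precursors (ILCP, n = 2) from bone marrow. NKT and ILCP express the transcription factor PLZF, encoded by Zbtb16, and the other two do not, so each tissue held one comparison. All libraries came from untreated young C57BL/6 mice and were described as biological replicates. CLP were sorted as lineage-negative IL-7Rα+ cells with intermediate cKit and Sca-1 and high Flt3. ILCP were sorted as lineage-negative IL-7Rα+ α4β7+ cells positive for eGFP. A strain with eGFP-Cre linked to Zbtb16 was listed among the mice. The authors' methods did not state which libraries came from this strain. The CD4SP gate was not given in the sources used here.

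Ikaros family proteins bind DNA through zinc fingers near the N-terminus and pair with one another through a second set of fingers at the C-terminus. They recruit chromatin remodelling and deacetylase complexes such as NuRD, and Ikaros is required for early lymphoid development. Aiolos is known from later B and T lineage stages, Helios and Eos from regulatory T cells and other T subsets, and Pegasus is a more divergent and broadly expressed member.

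The libraries held between 19343 and 41535 peaks, and CLP replicate 1 was the smallest. The number of reads behind each list was not given per library, so the lack of a peak shows that no call was made, not that the chromatin was closed. Start-site peaks of Cd4 and Cd3e were present in all 4 thymic libraries and in no marrow library, those of Flt3 in all 5 marrow libraries only, and that of Rag1 in the 3 CLP libraries only. A Zbtb16 start-site peak was called in both NKT libraries, both ILCP libraries and CLP replicate 2. Other markers did not follow the tissue or cell type: Cd5 was open also in the 3 CLP libraries, Ccr7 in 4 marrow libraries, Il2rb in both CD4SP libraries, Kit in NKT replicate 2 and Dntt in CD4SP replicate 2 but not in CLP replicate 1. Tbx21, a marker of mature NKT cells, had one in NKT replicate 2 alone, and Id2, Gata3 and Pdcd1 had one in all 9 libraries, so these did not separate ILCP. No library had a start-site peak at the B lineage genes Pax5 and Cd79a. Of the 3 myeloid markers, Mpo was open in CLP replicate 2, Csf1r in CLP replicate 3 and Elane in none. Of the 3 erythroid markers, Klf1 was open in all 9 libraries, Epor in 3 and Gata1 in none. In sorted populations, fewer cells with an open site and less opening per cell cannot be told apart.

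The family differed by tissue in its number of peaks, and the largest part of that difference lay at Ikzf3. Over the 5 genes together, CD4SP replicates 1 and 2 had 40 and 43 peaks, NKT had 35 and 40, CLP replicates 1 to 3 had 16, 32 and 31, and ILCP had 20 and 20. Every thymic library was above every marrow library in this total. Ikzf3 had 6 to 13 peaks in a thymic library and 0 to 2 in a marrow library, without overlap. Ikzf2 had 10 to 13 and 4 to 10, Ikzf1 had 12 to 14 and 7 to 15, and Ikzf4 had 3 to 4 and 1 to 4, all with overlap or a shared value, and Ikzf5 had 2 in every library.

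**Figure D1:**
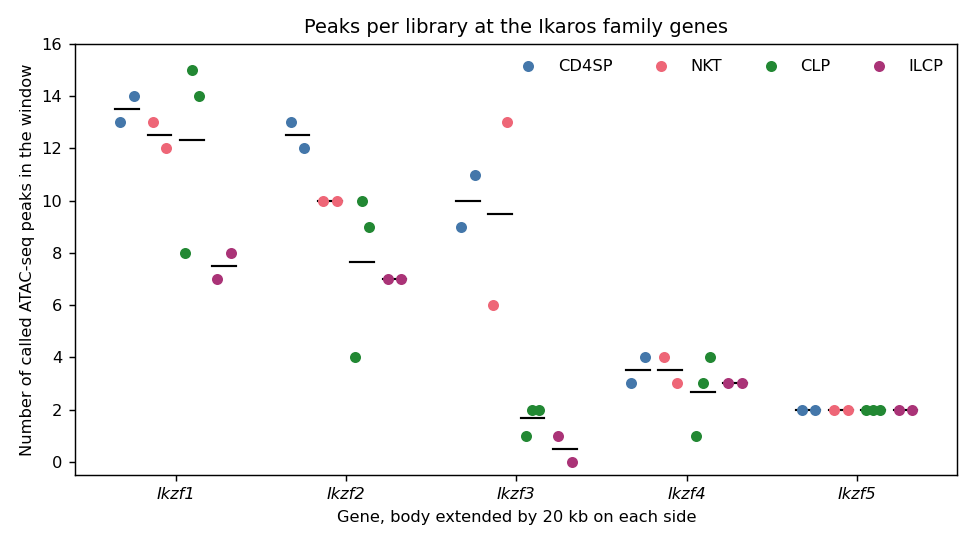
Number of ATAC-seq peaks in each Ikaros family gene window (gene body and 20 kb on each side) in each library; points are libraries, coloured by cell type, and horizontal lines are group means. Ikzf3 had 6 to 13 peaks in the thymic libraries and 0 to 2 in the marrow libraries, while Ikzf5 had 2 in every library.

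In neither comparison of PLZF-expressing with PLZF-negative cells did the number of peaks at any of the 5 genes pass the exact permutation test, which the number of libraries did not allow within a tissue. In thymus, Ikzf1 had 12.5 ± 0.707 peaks in NKT and 13.5 ± 0.707 in CD4SP (SD, n = 2 and 2; exact permutation p = 0.667, two-sided). Ikzf2 had 10 ± 0 peaks in NKT and 12.5 ± 0.707 in CD4SP (n = 2 and 2; exact p = 0.333). These groups did not overlap, and 0.333 is the smallest p that 2 libraries against 2 allow. When each library was cut to its 19343 highest-scoring peaks, the size of the smallest list, the thymic difference of NKT minus CD4SP was -3 for Ikzf1 (exact p = 0.333) and -2 for Ikzf2 (exact p = 0.667). In marrow, where the smallest possible p was 0.1, Ikzf1 had 7.5 ± 0.707 peaks in ILCP and 12.3 ± 3.79 in CLP (n = 2 and 3; exact p = 0.3). The individual Ikzf1 values were 7 and 8 in ILCP and 8, 15 and 14 in CLP, so CLP replicate 1 alone overlapped ILCP. With equal numbers of peaks that difference was -2 and not -4.83, and the groups no longer overlapped (exact p = 0.1). The difference of ILCP minus CLP was -1.17 peaks for Ikzf3 (exact p = 0.3), -0.667 for Ikzf2 and 0.333 for Ikzf4 (exact p = 1 for both), and 0 for Ikzf5. These too moved with scaling. With equal numbers of peaks the difference was 0.167 for Ikzf3 (exact p = 1), 1.67 for Ikzf2 (exact p = 0.2) and 1.5 for Ikzf4 (exact p = 0.1). Per 10000 peaks of a library it was -0.309 for Ikzf3 and 0.448 for Ikzf2 (exact p = 0.1 for both).

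With labels permuted within each tissue, the summed difference of PLZF-expressing minus PLZF-negative cells was -5.83 peaks for Ikzf1 (exact p = 0.167; smallest possible 0.0167). This result depended on scaling. With equal numbers of peaks the sum was -5 with exact p = 0.0167, and per 10000 peaks of a library it was -1.22 with exact p = 0.0333. These p-values were not adjusted for the 15 tests of the 2 contrasts and their sum over the 5 genes. Nor were they adjusted for the tests of the difference between contrasts or for the other settings tried. The sums were -3.17 for Ikzf2 (exact p = 0.267), -1.67 for Ikzf3 (exact p = 0.667), 0.333 for Ikzf4 (exact p = 0.95) and 0 for Ikzf5. The Ikzf4 sum also moved, to 2 with equal numbers of peaks (exact p = 0.05). The difference between the thymic and the marrow contrast did not pass the test for any of the 5 genes, with exact p from 0.367 for Ikzf1 to 1 for Ikzf5.

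Ikzf1 (ENSMUSG00000018654.17, chr11:11685003-11772926, plus strand) held the most intervals of the family, 21, of which 15 were intronic, 3 upstream and 3 downstream. Only 219 of the 21951 genes, or 0.998%, had more intervals in their window. That rank was not scaled to window length, which was 127924 bp for Ikzf1. The gene had 12 to 14 peaks in the thymic libraries and 7 to 15 in the marrow libraries, and some intervals were called in 1 tissue only. Positions are given from the midpoint of an interval to the annotated start at 11686213, positive in the direction of transcription. The strength of a peak is given as its upper percentage, the share of the peaks in that library with a score at least as high, so a small value is a strong peak. The percentage depends on the length of the list, which differed between libraries, so orders between libraries are descriptions of these lists.

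Start-site accessibility of Ikzf1 was itself uneven. The interval over the start covered 2631 bp, and its best peak lay in the upper 66.4% and 31.1% in CD4SP, 88% and 64% in NKT, 69.7%, 10.2% and 13.2% in CLP and 87% in ILCP replicate 1, with none called in ILCP replicate 2. The 2 larger CLP lists thus ranked it highest, and it was weakest in NKT replicate 1 and in ILCP. Where a peak was called, the bases covered ranged from 467 bp in NKT replicate 1 to 2581 bp in CLP replicate 2.

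The strongest thymic site of Ikzf1 was in intron 3, at +40 kb (chr11:11724974-11727427). It was in the upper 4.33% and 5.88% of peaks in CD4SP and 14.4% and 15% in NKT, was missing in all 3 CLP libraries, and in ILCP was called in replicate 2 only, at 60.7%. Both CD4SP libraries ranked it above both NKT libraries. The opposite pattern was seen at +77.2 kb in intron 7 (chr11:11762694-11764166), an interval in the upper 16.8%, 12.4% and 11.5% of the CLP lists and in no other library. At +65.1 kb in intron 4 (chr11:11750741-11751962) lay a site open in all 5 marrow libraries and in no thymic library. Its upper percentages were 44.6%, 30% and 29.6% in CLP and 18% and 15.9% in ILCP, without overlap. Counted from the top of each list it was peak 8630, 12460 and 11867 in CLP and 4742 and 4094 in ILCP, again without overlap. It was the 1 of 57 family intervals with this pattern, which 2.04% of all intervals shared.

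A further intron 3 site at +55.6 kb was open in both ILCP libraries, at 60.9% and 51.8%, and in all 4 thymic libraries, between 50% and 58.5%, but in no CLP library. The reference sequence (mm10, plus strand) of 200 bp around the centre of each of these 4 intronic sites is shown as an example of intervals that differed between cell types within Ikzf1. Capitals mark matches, on either strand, to the motif letters listed with the motif counts.
Ikzf1 +40 kb, chr11:11726122-11726321: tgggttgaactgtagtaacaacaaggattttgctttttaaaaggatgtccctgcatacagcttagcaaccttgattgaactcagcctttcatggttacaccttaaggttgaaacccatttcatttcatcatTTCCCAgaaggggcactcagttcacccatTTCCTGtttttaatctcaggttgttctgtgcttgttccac
Ikzf1 +55.6 kb, chr11:11741707-11741906: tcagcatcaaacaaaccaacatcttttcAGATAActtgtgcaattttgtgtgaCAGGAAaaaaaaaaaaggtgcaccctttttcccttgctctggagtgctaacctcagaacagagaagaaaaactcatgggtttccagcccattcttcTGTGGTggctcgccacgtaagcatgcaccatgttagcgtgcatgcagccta
Ikzf1 +65.1 kb, chr11:11751263-11751462: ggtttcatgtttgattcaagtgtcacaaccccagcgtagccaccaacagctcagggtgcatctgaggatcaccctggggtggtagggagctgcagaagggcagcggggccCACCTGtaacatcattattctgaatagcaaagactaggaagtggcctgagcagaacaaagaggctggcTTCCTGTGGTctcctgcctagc
Ikzf1 +77.2 kb, chr11:11763331-11763530: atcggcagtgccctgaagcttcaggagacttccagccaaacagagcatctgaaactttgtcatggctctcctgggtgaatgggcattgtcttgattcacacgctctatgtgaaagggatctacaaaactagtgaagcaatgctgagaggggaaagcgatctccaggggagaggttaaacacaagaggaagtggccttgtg
The +40 kb site held an Ikaros match and an Ets match, the +55.6 kb site held Runx, GATA and Ets matches, and the +65.1 kb site held an E-box match and overlapping Ets and Runx matches. The CLP site at +77.2 kb held none of the searched motifs in this window.

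**Figure D2:**
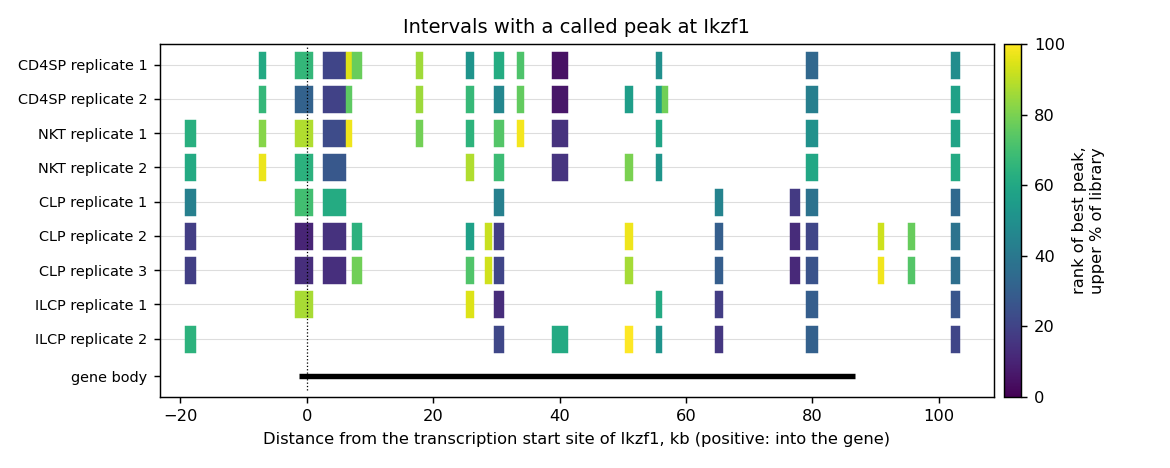
Merged intervals of the Ikzf1 window in each library against distance from the start site in kb, coloured by the upper percentage of the best peak (a small value is a strong peak). The +40 kb interval was strong in the 4 thymic libraries, the +65.1 kb interval was present in the 5 marrow libraries only, and the +77.2 kb interval in the 3 CLP libraries only.

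The same gene also had accessible sites shared by all cell types. Intervals at +30.4 kb, +79.9 kb and +102.6 kb were called in all 9 libraries. The +30.4 kb site had the smaller percentages in marrow, 43.3%, 18% and 20.4% in CLP and 12.6% and 21.1% in ILCP, against 46.2% to 73.4% in the thymic libraries, and the 2 tissues did not overlap. Counted from the top it was peak 3323 to 8380 in the marrow lists and 17513 to 26582 in the thymic lists. An interval in intron 1 at +4.3 kb, the widest of Ikzf1 at 3622 bp, was open in all CLP and all thymic libraries and in neither ILCP library. It and the +77.2 kb site were the 2 CLP-specific intervals of the family, meaning open in every CLP library and in no ILCP library. The upstream interval at -18.5 kb was the 1 NKT-specific interval, at 63% and 60.6% in NKT and in no CD4SP library, but it was also open in the 3 CLP libraries, at 43%, 18.1% and 18.6%, and in ILCP replicate 2, at 64.1%. The -7.1 kb interval was open in all 4 thymic libraries, ranked between 60.2% and 97.2%, and in no marrow library.

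Ikzf2 (ENSMUSG00000025997.13, chr1:69531214-69687245, minus strand) held 15 intervals, 11 of them intronic. Its start site lay in the widest open domain of the family, 7691 bp after merging (chr1:69682027-69689717). Within that domain CLP replicates 2 and 3 each had 1 continuous peak of 6976 bp and 6998 bp, in the upper 3.32% and 3.13% of their lists. Both had a score of 3100, which 1380 and 1255 peaks of these lists reached, so the percentages do not order them among those peaks. The other 7 libraries each had 3 separate peaks there, which covered 3095 bp in CLP replicate 1, 2867 bp and 3003 bp in ILCP, 4608 bp and 3669 bp in CD4SP and 3087 bp and 3275 bp in NKT. The continuous form was thus seen in the 2 CLP libraries with the longest peak lists and not in the third. Whether it moves with the number of peaks called was not tested.

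Around this domain the Ikzf2 sites differed between cell types. An upstream interval at -6.6 kb was absent from all 3 CLP libraries and present in the 6 others, at 54.4% and 39.6% in ILCP, 22.8% and 33.5% in CD4SP and 23.5% and 41.4% in NKT. This interval, the +55.6 kb site of Ikzf1 and a site upstream of Ikzf4 were the 3 ILCP-specific intervals of the family. Inside intron 3, the +4.7 kb interval had a similar distribution, at 47.1% and 45.2% in ILCP and 26.2% to 68.3% in thymus, with a single CLP call at 99.4% in replicate 2. The +30.6 kb interval, in the same intron, was called in all 5 marrow libraries, at 91.1%, 29.1% and 32.1% in CLP, 82.4% and 89.1% in ILCP and, in thymus, in CD4SP replicate 1 alone at 99.2%. Of the 3 CD4SP-specific intervals of the family, 2 were in the same intron, at +41.7 kb and +47.6 kb. The third, at +50.4 kb of Ikzf3, was weak, at 92% and 80.3% in CD4SP. The +41.7 kb interval (chr1:69643600-69644559) was at 85.7% and 76% in CD4SP. The next interval, at +40.8 kb (chr1:69644593-69645519), was called in both NKT libraries, at 58.3% and 77.4%, and in CD4SP replicate 2 at 86.7%. The +47.6 kb interval was at 56.1% and 65% in CD4SP and in no NKT library, but CLP replicates 2 and 3 had it at 27.2% and 32.7%.

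In intron 5, the +129.9 kb interval (chr1:69555359-69556418) was the only Ikzf2 interval open in all 4 thymic libraries and in no marrow library. Its upper percentages were 48.5% and 65.6% in CD4SP and 56.2% and 73.1% in NKT, and these overlapped. The sequence at its centre is shown as the thymic site of the gene, and its capitals mark Runx, Ikaros and Ets matches in that order.
Ikzf2 +129.9 kb, chr1:69555780-69555979: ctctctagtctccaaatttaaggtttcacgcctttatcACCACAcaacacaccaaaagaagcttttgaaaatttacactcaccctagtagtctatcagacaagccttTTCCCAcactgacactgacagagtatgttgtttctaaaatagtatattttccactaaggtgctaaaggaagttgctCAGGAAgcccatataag
The interval at +172.2 kb, downstream of the gene, was open in 8 libraries and missing only in CLP replicate 1. NKT replicate 1 ranked it highest, at 10.1%, and CD4SP replicate 2 lowest, at 46.3%.

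**Figure D3:**
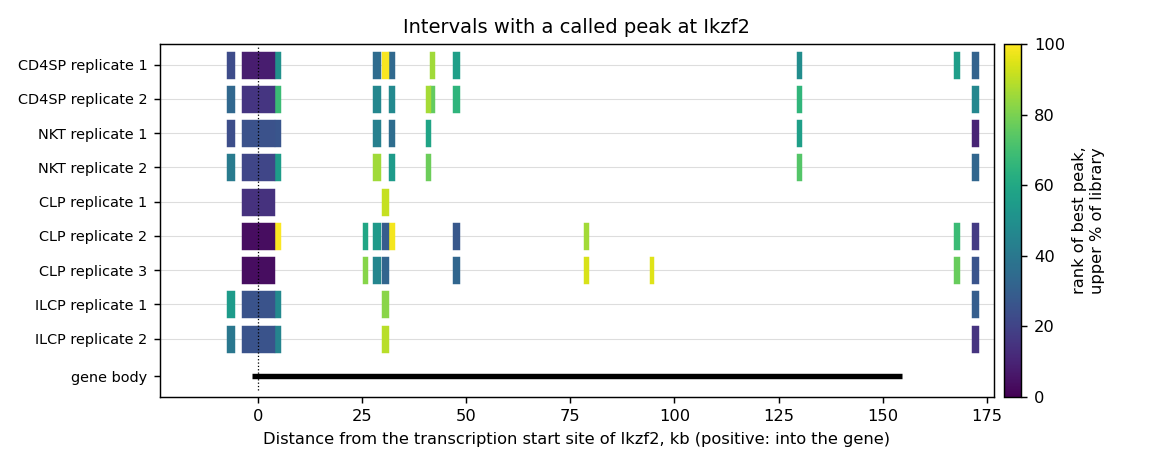
Merged intervals of the Ikzf2 window in each library against distance from the start site in kb, coloured by the upper percentage of the best peak. The domain over the start was present in all 9 libraries, the interval at -6.6 kb was absent from the 3 CLP libraries, and the interval at +129.9 kb was present in the 4 thymic libraries only.

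Ikzf3 (ENSMUSG00000018168.8, chr11:98464902-98546031, minus strand) had almost no called peak in marrow. CD4SP had 9 and 11 peaks, NKT had 6 and 13, CLP had 1, 2 and 2, and ILCP had 1 and 0. The tissues did not overlap, and this held per 10000 peaks of a library, with 1.73 to 3.35 in thymus and 0 to 0.517 in marrow. Within thymus the order was undecided, since the NKT libraries lay on either side of the CD4SP libraries (9.5 ± 4.95 against 10 ± 1.41, n = 2 and 2; exact permutation p = 1). Without NKT replicate 1 the difference of NKT minus CD4SP turned from -0.5 to 3 peaks, and without CD4SP replicate 2 to 0.5.

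Of the 14 Ikzf3 intervals, 12 (85.7%) were open in at least 1 thymic library and in no marrow library, against 27% of all intervals. In only 49 genes of the 21951 (0.223%) was the number of such intervals higher. That rank was not scaled to window length, which was 121130 bp for Ikzf3. No marrow library had any peak inside the Ikzf3 gene body, and the 6 marrow peaks were all in 2 flanking intervals. One of these, at -5.1 kb (chr11:98549769-98551968), was within 1 kb of the start of the neighbouring gene Zpbp2, so it cannot be assigned to either gene. The start of Grb7 was also in the window and had no peak in any library. The -5.1 kb interval was among the strong thymic peaks, at 7.79% and 3.41% in CD4SP and 13.8% and 3.86% in NKT. It was weaker in marrow, at 93.4%, 52.8% and 68.2% in CLP and 56.9% in ILCP replicate 1. The other flanking interval lay downstream, at +87.9 kb. It was called in CLP replicates 2 and 3 at 83.3% and 99.3% and in thymus between 17.3% and 52.3%.

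The start site of Ikzf3 (chr11:98545431-98547269) was open at 87.4% and 34.8% in CD4SP and 56.8% in NKT replicate 2, with no call in NKT replicate 1. The most regular thymic sites were intronic, at +18.6, +48.3, +58 and +75.5 kb, each open in all 4 thymic libraries and in no marrow library. These 4 were among 6 such intervals in the family (10.5% of 57), a class that took 7.04% of all intervals. Without scaling to window length, 59 genes (0.269%) had more than 4. The +58 kb site in intron 5 was the steadiest, at 58.9% and 46.6% in CD4SP and 44.1% and 45.5% in NKT. The +75.5 kb site in intron 7 varied with the library, at 80% and 39.4% in CD4SP and 63.7% and 35.8% in NKT. The first replicate was the weaker in both types there, and also at +18.6, +48.3 and +87.9 kb and at -5.1 kb. At +18.6 kb the values were 81.6% and 40.9% in CD4SP and 79.8% and 49.9% in NKT. At +58 kb this order held in CD4SP only. The sequences at +58 and +75.5 kb are given as the sites that set thymic cells apart at this gene.
Ikzf3 +58 kb, chr11:98487751-98487950: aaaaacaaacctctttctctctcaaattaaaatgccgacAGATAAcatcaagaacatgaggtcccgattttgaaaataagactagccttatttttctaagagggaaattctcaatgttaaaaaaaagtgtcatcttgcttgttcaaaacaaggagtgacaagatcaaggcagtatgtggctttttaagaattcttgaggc
Ikzf3 +75.5 kb, chr11:98470223-98470422: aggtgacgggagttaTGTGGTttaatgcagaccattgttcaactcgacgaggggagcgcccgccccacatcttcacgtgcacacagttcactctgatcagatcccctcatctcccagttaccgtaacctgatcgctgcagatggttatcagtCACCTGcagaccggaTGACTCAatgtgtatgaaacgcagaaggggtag
The first held a GATA match only, and the second held Runx, E-box and AP-1 matches.

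**Figure D4:**
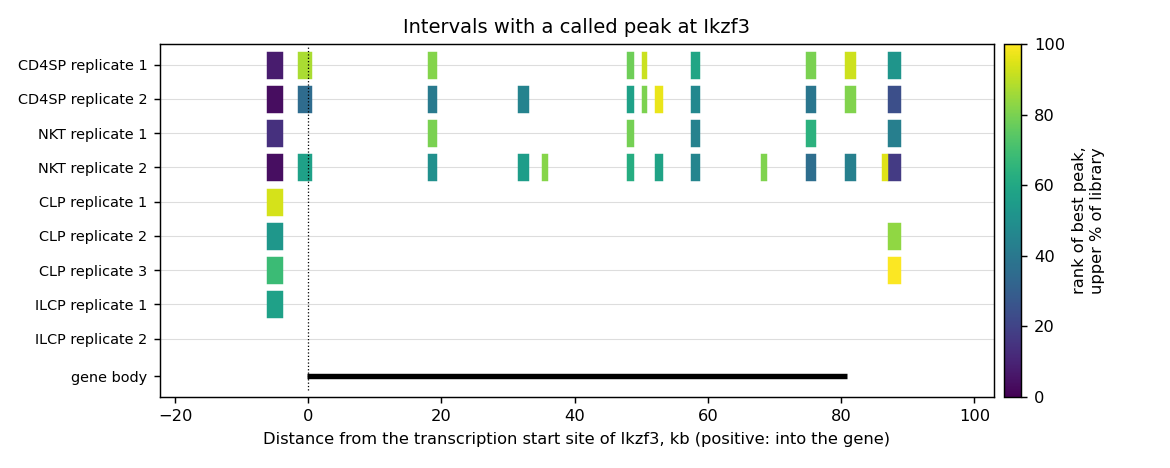
Merged intervals of the Ikzf3 window in each library against distance from the start site in kb, coloured by the upper percentage of the best peak. All 6 marrow peaks were in the intervals at -5.1 kb and +87.9 kb, and the gene body between them had peaks in thymic libraries only.

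Ikzf4 (ENSMUSG00000002578.17, chr10:128630843-128645991, minus strand) had 5 intervals. The strongest in thymus was in intron 5 at +8.9 kb (chr10:128636345-128637885), in the upper 8.5% and 4.72% in CD4SP, 14.5% and 12.8% in NKT, 54.9% and 79.4% in CLP replicates 2 and 3, and 69% and 68.9% in ILCP, with none in CLP replicate 1. All thymic libraries ranked it above all marrow libraries, and CD4SP above NKT. The start site was weak wherever it was called, at 77.7% in CD4SP replicate 2, 96.6% in NKT replicate 1 and 86.7% and 74.5% in CLP replicates 2 and 3. The Ikzf4 interval open in all 9 libraries, at +19.2 kb, ranked above the +8.9 kb interval in CLP and in ILCP replicate 1, and lay at the start of Rps26, a ribosomal protein gene, so it cannot be assigned to Ikzf4.

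One Ikzf4 interval, at -17.7 kb, was open in both ILCP libraries, at 66.9% and 96.5%, and in no other library, a class with 3.66% of all intervals. Of the 200 bp at its centre 85% was soft-masked in the reference as repetitive or low-complexity sequence. It was the 1 of 57 family intervals with more than 50% masked, against 3.27% of all intervals, and how reads of repeats were assigned was not given in the sources used here. The sequence is shown for that reason, with capitals at its motif matches.
Ikzf4 -17.7 kb, chr10:128663658-128663857: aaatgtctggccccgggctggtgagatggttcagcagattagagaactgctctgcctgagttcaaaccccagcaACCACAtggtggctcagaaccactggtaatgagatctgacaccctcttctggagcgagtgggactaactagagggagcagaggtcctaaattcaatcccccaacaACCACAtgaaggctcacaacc
Both matches were to Runx letters, on the minus strand.

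Ikzf5 (ENSMUSG00000040167.16, chr7:131388652-131410521, minus strand) was the constant member, with 2 peaks in every library. Its start-site interval (chr7:131409526-131411288) also covered the start of the divergent gene Acadsb, an acyl-CoA dehydrogenase. It was in the upper 21% and 11.9% in CD4SP, 21.8% and 7.52% in NKT, 14.2%, 8.21% and 9.64% in CLP and 10.7% and 7.15% in ILCP. Both ILCP libraries ranked it above both CD4SP libraries, and the percentages of the other pairs of cell types overlapped. The second interval lay at the start of Pstk and ranged from 4.19% in ILCP replicate 1 to 31.7% in CD4SP replicate 1. Both ILCP libraries ranked the Pstk interval, at 4.19% and 6.46%, above all other libraries.

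Intervals open in every library of 1 cell type and in no other library were rare at the family, with 2 for CD4SP (at Ikzf2 and Ikzf3) against 2.65% of all 71400 intervals, 0 for NKT against 1.96%, 1 for CLP (Ikzf1 +77.2 kb) against 3.89% and 1 for ILCP (Ikzf4 -17.7 kb) against 3.66%. A further 5, at Ikzf1 and Ikzf2, were open in CLP replicates 2 and 3 alone, against 10.2%. Counted over the family, intervals that separated the compared cell types were few, and their counts were close to or below the shares in the genome. NKT-specific intervals, open in both NKT and in no CD4SP library, numbered 1 of the 48 intervals open in either type, against a share of 6.48% of all such intervals. CD4SP-specific intervals numbered 3 of 48, against 5.21%. In marrow 3 of 37 intervals were ILCP-specific, against 8.67%, and 2 of 37 were CLP-specific, against 8.18%. The CLP count rested on CLP replicate 1. Without it 13 of 37 were CLP-specific, against 30.5% of all intervals, and these were 6 at Ikzf1, 5 at Ikzf2 and 1 each at Ikzf3 and Ikzf4. Without NKT replicate 1 there were 4 NKT-specific and 6 CD4SP-specific intervals of 48, against 13.4% and 7.54% of all intervals. Without NKT replicate 2 there were 5 CD4SP-specific of 45, against 10.03%. Without CD4SP replicate 2 there were 2 NKT-specific and 6 CD4SP-specific of 47, against 11.5% and 9.17%. Without ILCP replicate 1 there were 4 CLP-specific of 37, against 10.3%.

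The classes by tissue were unequal between the members. Over the family 20 intervals were open in thymus only, against 27% of all intervals, and 12 of them were at Ikzf3, 5 at Ikzf1 and 3 at Ikzf2. Open in marrow only were 9, against 33.6% of all intervals, with 5 at Ikzf1, 3 at Ikzf2, 1 at Ikzf4 and none at Ikzf3. Open in all 9 libraries were 7 intervals, against 13.3% of all, and 3 of these 7 were at Ikzf1, 2 at Ikzf5, and 1 each at Ikzf2 and Ikzf4. The 3 at Ikzf1 were intronic or downstream and not at its start, whereas the others, apart from the Ikzf2 domain, lay at starts shared with or belonging to neighbouring genes.

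**Figure D5:**
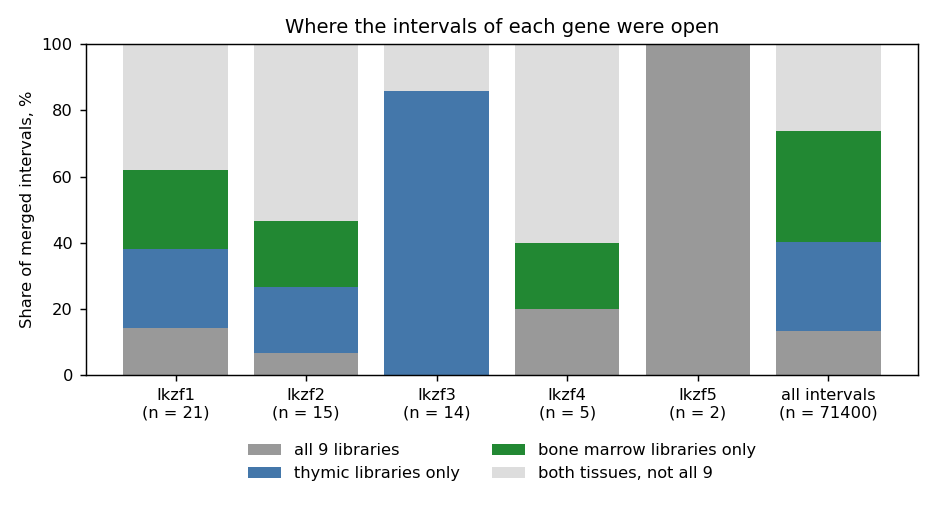
Stacked shares, in percent, of intervals open in all 9 libraries, in thymic libraries only, in marrow libraries only or in both tissues but not all 9, for each Ikaros family gene beside all 71400 intervals. Ikzf3 stands apart in the share open in thymic libraries only, with 85.7% against 27%, and both Ikzf5 intervals were open in all 9 libraries.

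The centres of the 57 intervals held the searched motifs at shares near those of all intervals. In 200 bp windows and on both strands, the Ikaros letters TGGGAA were present in 8 intervals (14%) against 13.7% of all intervals. Runx letters (TGTGGT or TGCGGT) were present in 26.3% against 29.7%, Ets letters (CAGGAA) in 36.8% against 32.6%, E-box letters (CAGCTG or CAGGTG) in 28.1% against 27.7%, GATA letters (AGATAA) in 10.5% against 9.65%, Tcf/Lef letters (CTTTGA) in 14% against 16.9% and AP-1 letters (TGAGTCA) in 5.26% against 4.97%. These windows differed in base composition between the intervals over the start sites. G and C made up 82% at Ikzf1, 85% at Ikzf2, 50.5% at Ikzf3, 67% at Ikzf4 and 64.5% at Ikzf5. The median over all intervals was 50%. The windows lay at the centres of the intervals and not always on the annotated start. At Ikzf3 the window (chr11:98546200-98546399) lay upstream of the start at 98545800. A match is a description of the letters and not evidence of binding.

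Over the 9 libraries, the bases covered by peaks in the Ikzf3 window followed most closely those of Sp6 (Pearson r = 0.995), Rrp1b (0.993) and Ttf1 (0.993) among 7627 genes. Sp6 covered 3161 bp and 6838 bp in CD4SP, 3188 bp and 7135 bp in NKT, at most 793 bp in CLP and 0 in ILCP. For Ikzf1 the most similar were Irgm1 (0.993), Gm28048 (0.993) and Btk (0.99), the last a kinase of B cell receptor signalling. For Ikzf2 they were Ahr (0.992), Myo10 (0.991) and Arl8b (0.991), for Ikzf4 Cabin1 (0.975) and Mas1 and Mrgprh, which had identical values (0.959 each), and for Ikzf5 Rnf144b (0.99), Camk2d (0.989) and Snx29 (0.989). The 9 points share the number of peaks of each library, so these values describe likeness only.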

How the data were processed

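ATAC-seq libraries were read as 9 deposited peak lists. The authors sorted cells, prepared nuclei, tagmented and sequenced them, and called peaks per library with MACS. The deposited column 5 is the caller's score, a number with no stated unit, from which only ranks within a library were used; many peaks tied near the top. The submitters' processing notes name Bowtie, Picard, HOMER and mm10. The MACS version and settings, removal of duplicates, blacklisting and the Tn5 shift were not given in the sources used here. The Runx1 and input ChIP samples were not analysed here.

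Peaks of all libraries were merged where they overlapped by at least 1 bp, and intervals with a peak in a library counted as open there. Windows were GENCODE M21 gene bodies extended by 20 kb. Sequence came from GRCm38.p6. RefSeq promoter sequences of 2 members (3 sequences) equalled the genome at their coordinates, and no peak ran past its chromosome's end. Each list held 2 mitochondrial peaks. Differences in mean number of peaks were tested with exact two-sided permutation tests of library labels, checked on simulated data, with Python 3.11.15, numpy 2.4.6, pandas 2.3.3, pysam 0.24.0 and matplotlib 3.10.9. Percentages of intervals are over all merged intervals, or those open in either compared cell type. Likeness was Pearson's r over libraries among genes with at least 5 intervals. Genes named besides the 5 members were cell type markers from fixed lists, those with start sites inside a window, the partner genes with most specific intervals and the 3 most alike per member. The members, lists and motifs were chosen with earlier results of these data known, and partner genes tied in number were all named.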

Additional observations from a re-analysis of the deposited data

How the results depend on the processing

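Over 11 other settings and with each of the 9 libraries left out in turn, 269 values kept their direction and their side of the 0.05 threshold, or moved little, 23 changed sign, 21 counts moved by more than 1.5 times and 4 tests passed the threshold. With each library cut to its 19343 best peaks, the differences (ILCP minus CLP) of Ikzf2 and Ikzf3 were 1.67 and 0.167, the sums over both tissues of Ikzf1 and Ikzf4 were -5 (exact p = 0.0167) and 2 (exact p = 0.05), and the NKT-, CD4SP- and CLP-specific counts were 0 of 30, 0 of 30 and 4 of 23 (5.35%, 5.10% and 11.3% of all intervals). With the upper 50% of peaks, the sum was -6.33 for Ikzf1 (exact p = 0.0333), 0.333 for Ikzf2 and 0.5 for Ikzf3, the marrow difference was 0.833 for Ikzf2 and -0.5 for Ikzf4, the thymic difference was 0.5 for Ikzf3, and the NKT-, CD4SP- and ILCP-specific counts were 0 of 27, 1 of 27 and 1 of 18 (5.72%, 4.68% and 9.24% of all). With gene bodies alone or an extension of 5 kb, the Ikzf4 marrow difference and sum were both -0.333 and the NKT-specific count was 0 (of 36 and 39; 6.48% of all intervals), and with gene bodies the ILCP-specific count was 1 of 24 (8.67%). Per 10000 peaks the Ikzf1 sum was -1.22 and the Ikzf2 marrow difference 0.448. In bases covered, the thymic Ikzf3 difference was 150.5 bp, and for Ikzf4 the marrow difference was -229.5 bp and the sum -591 bp. Requiring 50% of an interval gave 4 CLP-specific intervals of 34 (8.8% of all intervals), and reading any library of a type gave 4 NKT- and 7 CD4SP-specific of 48 (16.2% and 14% of all) and 16 CLP-specific of 37 (44.3%). The rule of 2 of 3 CLP libraries, chosen after seeing the data, gave 13 of 37 (30.7%). The cause of these changes was not tested.

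With 1 library left out, the NKT minus CD4SP difference ranged from -1.5 to -0.5 for Ikzf1, -3 to -2 for Ikzf2, -4 to 3 for Ikzf3 and -0.5 to 0.5 for Ikzf4. The ILCP minus CLP difference ranged from -7 to -3.5 for Ikzf1, -2.5 to 0.5 for Ikzf2, -1.67 to -0.667 for Ikzf3 and -0.5 to 1 for Ikzf4, and the sum from -8 to -4.5, -5 to -2, -5.17 to 1.83 and -0.5 to 1. For Ikzf5 all were 0. Counts ranged from 1 to 4 (NKT), 3 to 6 (CD4SP), 3 to 4 (ILCP) and 2 to 13 (CLP), while the shares of all intervals ranged from 6.47% to 13.4%, 5.21% to 10.9%, 8.67% to 12.1% and 8.17% to 30.5%. Ikzf2 changed sign without CLP replicate 2 (0.5) and Ikzf4 without CLP replicate 1 (-0.5).

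Groups share replicate numbers, but the labels tie them to no common mouse or day, and replicates 1 minus 2 correlated at 0.177 between NKT and CD4SP and at -0.0107 between ILCP and CLP. With the replicate number as a block, the Ikzf1 sum was -5 (exact p = 0.25); 0.125 is the smallest p of this test, so no call was possible. Numbers of 2 or 3 libraries limit every test, and the lack of read numbers per library limits what a missing peak means.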

Other observations

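The genes of proteins that work with Ikaros factors were read in the same way. A list of 17 corepressor genes, which encode subunits of NuRD, Sin3 and CtBP complexes, held 107 intervals, and 5 genes of the cereblon ubiquitin ligase, through which certain drugs cause Ikaros and Aiolos to be degraded, held 17. Intervals open in all 9 libraries were present at 20 of the 22 genes, against 47.3% of all genes. NKT-specific intervals were present at 4 of the 22 genes, against 11.5% of all genes, with 2 at Ctbp2 and 1 each at Mta1, Mta3 and Gatad2a. CD4SP-specific intervals were present at 2 genes, Gatad2a and Gatad2b, against 8.36%. ILCP-specific intervals were present at 3 genes, with 2 at Mbd2, a reader of methylated DNA, and 1 each at Ctbp1 and Ctbp2, against 13.8%. CLP-specific intervals were present at 7 genes, against 16.4%. Gatad2a had 3, and Chd4, Hdac1, Mta3, Gatad2b, Sin3a and, in the ligase list, Ddb1 had 1 each. Over the 22 genes, 38 of 124 intervals were open in thymus only, against 27% of all intervals, and 16 of 124 were open in marrow only, against 33.6%.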
